A study of Mus musculus with 8 samples.

Results

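The genes described here are 52 genes of mitosis and chromosome segregation, chosen by symbol as a fixed set of cyclins and kinases, checkpoint and kinetochore proteins, spindle motors, cytokinesis proteins and chromosome structure proteins. All 52 were found in both deposited tables, out of 19805 gene symbols present in either table. RNA was sequenced in bulk from mouse spleen CD8 T cells and lung group 2 innate lymphoid cells (ILC2s, lymphocytes that lack antigen receptors and make type 2 cytokines). The groups were CD8 T cells co-cultured with ILC2s, CD8 T cells alone, ILC2s co-cultured with CD8 T cells and ILC2s alone, with 2 libraries each and 8 in all. All cells came from wild-type mice, were cultured for 3 days and were sorted by flow cytometry before RNA extraction, and co-cultures were set up at a ratio of 5:1, per the labels. Whether the 2 libraries of a group are separate cultures or animals is not stated in the labels, and the p-values therefore speak only of the scatter between these libraries, which may be technical.

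Entry into mitosis is driven by the kinase CDK1 bound to a B-type cyclin. The mitotic checkpoint then holds the cell until kinetochores, the protein plates on centromeres, have attached each chromosome to spindle microtubules. The anaphase-promoting complex with its activator CDC20 next marks cyclin B and securin for destruction, sister chromatids separate, and a ring of actin and myosin divides the cell. Most genes of this set are transcribed in the G2 and M phases of the cycle, and resting lymphocytes express little of them until they are activated.

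Library totals ran from 48072595 to 67076905 reads. The ILC2 libraries labelled alone stood apart from those labelled co-cultured in markers of other cells. Of 13 stroma and epithelium markers tested in ILC2s, 10 were lower in the libraries labelled co-cultured, where their levels in CPM (reads of a gene per 1e+06 reads of its library) summed to 325 and 317, against 8889 and 9630 in those labelled alone. The 5 monocyte and macrophage markers tested, of 13 listed, summed to 17.0 and 21.1 CPM in ILC2s labelled co-cultured and to 313 and 319 in those labelled alone. The 12 CD8 T cell markers summed to 426.5 and 505 CPM in ILC2s labelled co-cultured and to 2091 and 1960 in those labelled alone. The 3 NK cell markers tested summed to 1.34 and 1.64 CPM in ILC2s labelled co-cultured and 26.1 and 24.7 in those labelled alone. The sum of the 4 CD4 and regulatory T cell markers went the other way, although 1 was higher and 3 were lower in ILC2s (median log2 change -2.34). That sum was 1733 and 1688 CPM in ILC2s labelled co-cultured and 399 and 408 in those labelled alone. In CD8 T cells it was 825 and 745 CPM in co-cultured cells and 523 and 543 in cells alone, with 2 markers higher and 1 lower. The defining fibroblast gene Col1a1 was at 0.64 and 0.312 CPM in ILC2s labelled co-cultured, against 1068 and 1226 in those labelled alone. The sum of the 17 ILC2 identity genes was also higher in co-culture, with 15 genes higher and 2 that did not pass the test. It was 11807 and 11654 CPM in ILC2s labelled co-cultured and 4691 and 4694 in those labelled alone. In CD8 T cells, the 12 CD8 identity genes summed to 8073 and 7938 CPM in co-cultured cells and 6272 and 6398.5 in cells alone, and 14 ILC2 identity genes to 1171 and 1194 in co-cultured cells and 822 and 816 in cells alone. The ILC2 identity sum rose there although, of its 14 genes, 5 were higher and 7 lower in co-cultured CD8 T cells. Their median log2 change was -0.35. Of 6 stroma markers tested in CD8 T cells, the sum was 191 and 184 CPM in co-cultured cells and 84.2 and 85.0 in cells alone, with 4 higher and 2 lower. That sum does not come from Col1a1, which was at 0.771 and 1.24 CPM in co-cultured CD8 T cells and 0.513 and 0.368 in CD8 T cells alone. Cd8a was at 6.09 and 6.76 CPM in ILC2s labelled co-cultured, against 249 and 258 in those labelled alone, although by their label these were cultured without CD8 T cells. These values and the label of the ILC2 libraries called alone are thus at odds. Whether the labels, the sorting or the culture lie behind this was not tested. All ILC2 and interaction directions hold only if both ILC2 labels are right, since an exchange would turn them. The part of the other-cell transcripts in the results was not tested. In bulk samples, fewer dividing cells and less RNA per cell cannot be told apart.

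The promoters of these genes carry letters in common that the choice of the set did not use. Cell cycle promoters of the G2 and M phases are known for the cell cycle genes homology region (CHR), which is bound by complexes built on the MuvB core, and for CCAAT boxes, which are bound by NF-Y. RefSeq promoters (build GRCm38.p6, 250 bases before to 50 after the start) matched 42 of the 52 genes. The other 10, Smc4, Foxm1, Cdc25c, Ccna2, Spc24, Kif20a, Aurkb, Tpx2, Dlgap5 and Incenp, had no entry. The CHR letters TTTGAA or TTCGAA, on either strand, were held by 33 of 42 promoters (78.6%), against 8 of 40 promoters of a DNA replication list, 14.6% of the 11145 promoters of genes tested in CD8 T cells and 19.4% of all 27025 in the table. From position -60 to the end of the window, 30 of the 42 (71.4%) held them, against 4 of 40 replication promoters and 4.09% of promoters of genes tested in CD8 T cells. CCAAT, on either strand, was in 32 of the 42 (76.2%), against 24 of 40 replication promoters and 39.0% of those of genes tested in CD8 T cells. E2F letters (TTTGGCGC, TTTCGCGC, TTCCCGCC or TTGGCGCC, either strand, where TTGGCGCC can overlap a CCAAT box read on the other strand) were in 3 of the 42 (7.14%) and in 16 of the 40 replication promoters, against 6.4% of promoters of genes tested in CD8 T cells. A match of letters is a description and not a binding site.

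For 6 genes the 160 bases before the start are given, 5′ to 3′ on the gene's strand, with CHR and CCAAT letters of either strand in capitals. They were picked to show each main pattern of change: Cdk1, Cks1b and Cdc20 were lower in co-culture in both cell types, Kif11 and Top2a higher in CD8 T cells and lower in ILC2s, and Ncapd2 higher in both. Cdk1 is chr10:69352913-69353072 (minus strand), Cks1b chr3:89418292-89418451 (minus), Cdc20 chr4:118437344-118437503 (minus), Kif11 chr19:37376222-37376381 (plus), Top2a chr11:99024190-99024349 (minus) and Ncapd2 chr6:125191587-125191746 (minus).
Cdk1: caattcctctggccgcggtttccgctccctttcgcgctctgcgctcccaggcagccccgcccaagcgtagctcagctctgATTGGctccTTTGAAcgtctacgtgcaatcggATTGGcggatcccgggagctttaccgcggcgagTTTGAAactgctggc
Cks1b: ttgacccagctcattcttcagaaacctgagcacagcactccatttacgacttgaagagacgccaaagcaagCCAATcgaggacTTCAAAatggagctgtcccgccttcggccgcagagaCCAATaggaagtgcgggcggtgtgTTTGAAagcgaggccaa
Cdc20: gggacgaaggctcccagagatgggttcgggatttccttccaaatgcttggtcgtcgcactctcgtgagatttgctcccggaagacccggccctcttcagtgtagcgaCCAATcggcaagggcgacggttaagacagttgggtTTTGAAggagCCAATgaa
Kif11: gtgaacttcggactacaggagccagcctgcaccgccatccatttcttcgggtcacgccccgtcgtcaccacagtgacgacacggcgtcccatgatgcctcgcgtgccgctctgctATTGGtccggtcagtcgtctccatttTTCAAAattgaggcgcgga
Top2a: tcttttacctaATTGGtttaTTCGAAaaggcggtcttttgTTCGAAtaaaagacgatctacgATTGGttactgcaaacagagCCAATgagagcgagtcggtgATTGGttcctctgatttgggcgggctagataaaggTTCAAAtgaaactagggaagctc
Ncapd2: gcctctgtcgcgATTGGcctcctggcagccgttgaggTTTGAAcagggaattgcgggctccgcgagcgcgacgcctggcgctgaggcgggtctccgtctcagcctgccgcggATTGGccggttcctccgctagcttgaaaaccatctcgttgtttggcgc
Of the printed genes, the 3 lower in both cell types, Cdk1, Cks1b and Cdc20, hold a CHR at -15, -17 and -18 from the start. Kif11 and Top2a, which moved in opposite directions, hold one at -19 and -23. Of other genes lower in both, Plk1 and Aurka hold theirs after the start, at 31 and 33. Ccnb1, Cks2, Mybl2, Mad2l1, Nuf2 and Birc5, also lower in both, hold none in the window. A link of CHR position to direction was not tested. In Ncapd2 the only CHR of the window lies at -123. That position counts from a start inside the annotated gene (chr6:125168007-125192100, minus strand), so it cannot be set beside the others. Over the 33 genes with CHR letters the median log2 change was 0.02 in CD8 T cells and -0.82 in ILC2s, and over the 9 without them it was -0.61 in CD8 T cells and -0.78 in ILC2s.

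In co-cultured CD8 T cells, cyclin, checkpoint and kinetochore genes were more often lower than higher, while motor and cytokinesis genes were more often higher than lower. The roles also differ in transcript length, with which the changes moved (below), and role and length were not separated. The summed level of the set overlapped that of CD8 T cells alone. Each gene was tested with edgeR over all genes of the cell type, and "higher" or "lower" is used for an adjusted p under 0.05. Of the 52, 18 were higher in co-cultured CD8 T cells and 25 lower, where 30.2% of all 15948 genes tested were higher and 30.7% lower (60.9% in either direction). The median log2 change was -0.12, against -0.01 over all genes tested. A single fit of all 8 libraries called 12 members higher and 20 lower, with 4 of 11 motor genes and 3 of 4 cytokinesis genes higher, against 7 and 4 when CD8 T cells were fitted on their own. A change of at least 2-fold was passed by Cdc25b upward and Cks1b downward, 1 gene each way, where 9.61% of all genes were higher and 10.7% lower by that much. Summed over the 52 genes, the level was 8466 and 8412 CPM in co-cultured CD8 T cells and 8831 and 8343 CPM in CD8 T cells alone.

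In ILC2s the same genes were lower in co-culture almost throughout. Of the 52, 43 were lower in ILC2s labelled co-cultured and 3 higher (Cdc25b, Ncapd2 and Pttg1), where 34.4% of all 16739 genes tested were lower and 31.8% higher (66.3% in either direction). The median log2 change was -0.84, against -0.01 over all genes tested, and 21 of the 52 fell by at least 2-fold and none rose by that much, where 22.7% of all genes fell and 17.6% rose by at least 2-fold. Their summed level was 2608 and 2465 CPM in ILC2s labelled co-cultured and 5311 and 4630 CPM in those labelled alone, with no overlap. With library scaling set by the 17 ILC2 identity genes instead of all genes, all 52 members were lower. So were 13340 of all 16739 genes tested, with 484 higher, and the median of all genes tested was -1.54. Of the 17 scaling genes, 15 were themselves higher in co-culture with the main scaling. The median of the members minus that of all genes was -0.83 with either scaling. A change of scaling moves all genes by nearly the same amount, so this likeness was fixed in advance and lends no support.

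**Figure D1:**
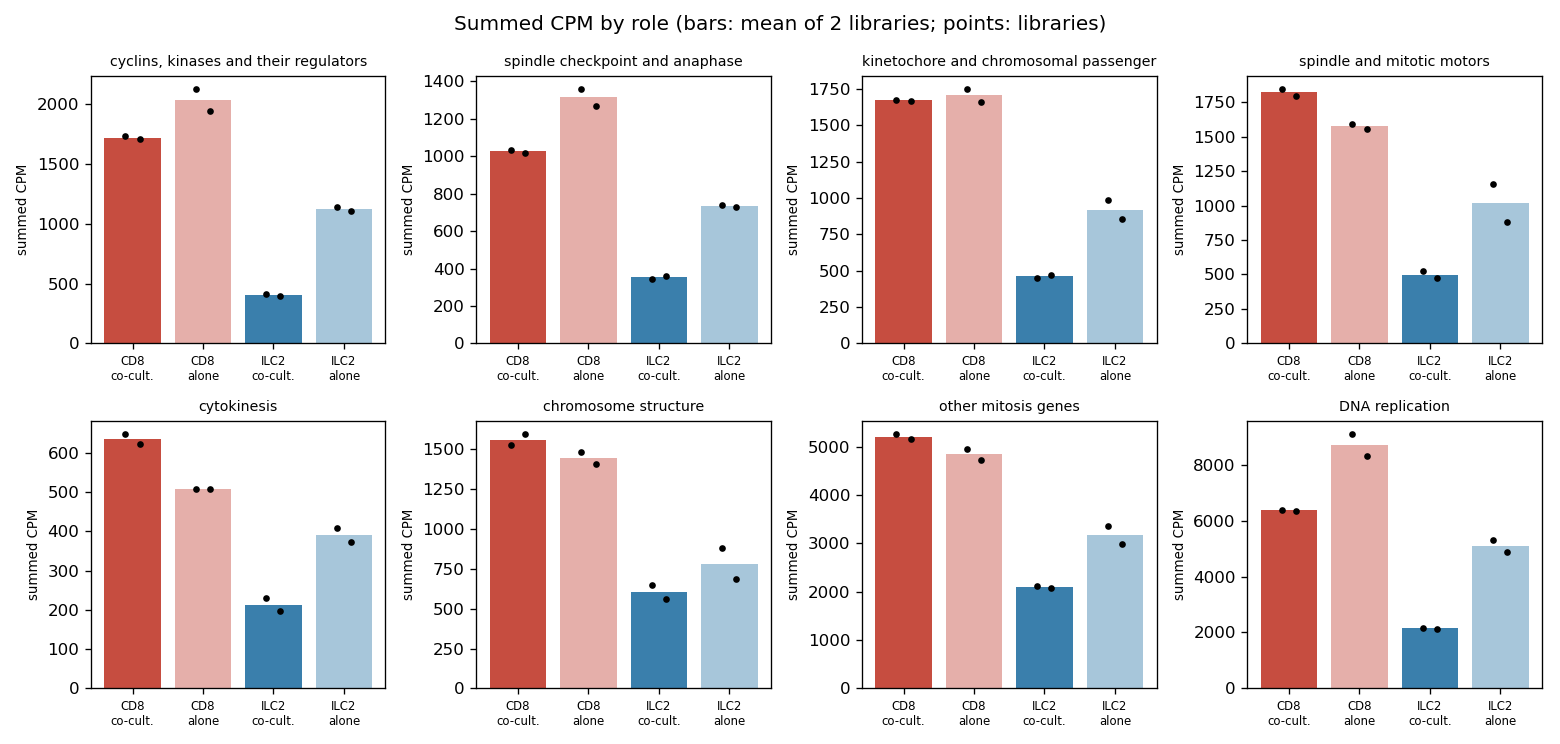
Summed CPM by role of the mitosis genes, and of further mitosis and DNA replication genes, with bars for the mean of 2 libraries and points for the libraries. Co-cultured CD8 T cells lie below CD8 T cells alone for cyclins, checkpoint and DNA replication genes and above them for motor and cytokinesis genes, and ILC2s labelled co-cultured lie below those labelled alone in every panel.

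The response differed between the cell types for most of the set. The difference (ILC2 co-cultured over alone) minus (CD8 co-cultured over alone) was tested in 1 edgeR model of the 8 libraries, over 15532 genes that both tables hold. It was lower for 43 of the 52 genes and higher for 1, Pttg1, where 32.6% of all genes were lower and 21% higher (53.6% in either direction). By at least 2-fold it was lower for 22 members and higher for none, where 19.5% of all genes were lower and 11% higher. Its median was -0.93, against -0.12 over all genes tested. Of the 52 genes, 22 were lower in both cell types, 14 were higher in CD8 T cells and lower in ILC2s, and 1 was lower in CD8 T cells and higher in ILC2s. Among all 14835 genes tested in both, 17.8% were lower in both, 6.33% were higher in CD8 T cells and lower in ILC2s, and 4.54% the reverse. The 14 genes were Cdc25c, Foxm1, Cenpa, Kif11, Kif20a, Kif2c, Kif4, Tpx2, Dlgap5, Prc1, Anln, Ect2, Racgap1 and Top2a, and the difference itself passed the test for each of them. For 5 of the 14, Kif2c, Tpx2, Dlgap5, Prc1 and Top2a, the CD8 change did not pass in a fit of all 8 libraries (adjusted p 0.0698 to 0.198).

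**Figure D2:**
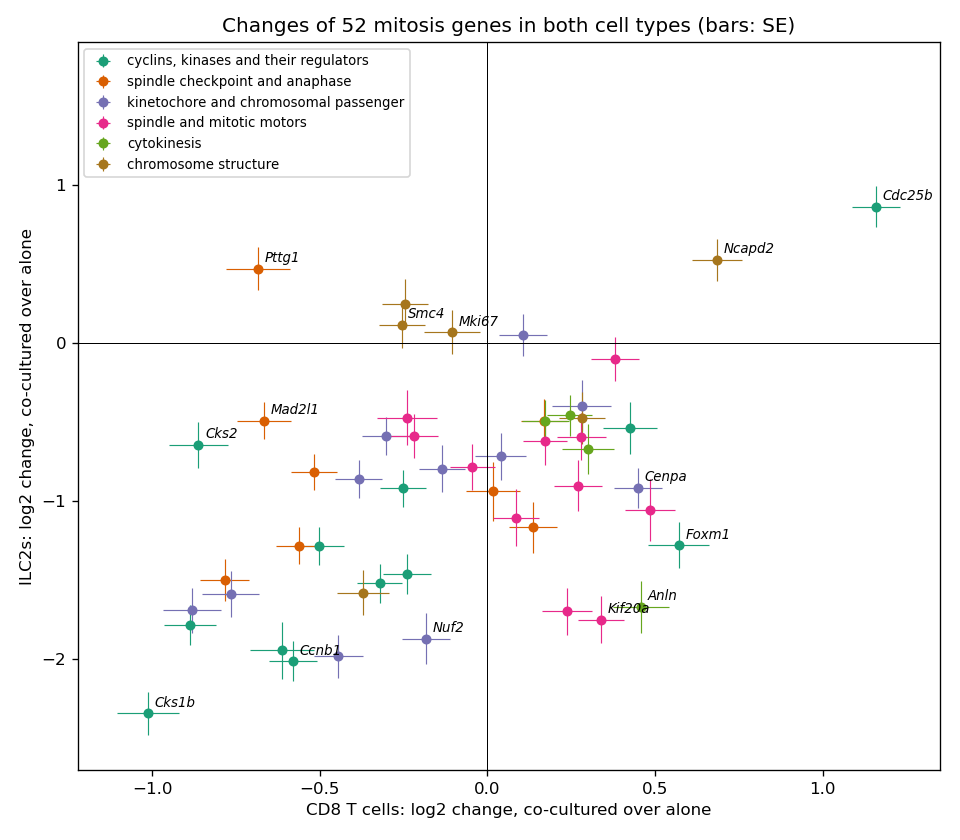
Log2 change of each of the 52 genes in CD8 T cells (horizontal axis) and ILC2s (vertical axis), co-cultured over alone, coloured by role. Most points lie below the horizontal 0 line, and the motor and cytokinesis genes gather to the right of the vertical one.

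Cyclins, kinases and their regulators were mostly lower in co-culture, and in ILC2s had the lowest median of the 6 roles. Of 12 genes, 9 were lower in co-cultured CD8 T cells and 3 higher (Cdc25b, Cdc25c and Foxm1), with a median log2 change of -0.41. In ILC2s 11 were lower and Cdc25b higher, with a median of -1.37. Cdk1, the kinase that starts mitosis, was at 130 and 133 CPM in co-cultured CD8 T cells, against 246 and 214 in CD8 T cells alone. In ILC2s it was at 31.4 and 37.2 CPM in those labelled co-cultured and 133 and 140 in those labelled alone. The log2 change of Cdk1 was -0.89 (SE 0.0773, adjusted p = 6.6e-07) in CD8 T cells and -1.78 (SE 0.126, adjusted p = 2.5e-07) in ILC2s. In each cell type both co-cultured libraries were below both libraries of the same cells alone.

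Ccnb1 and Ccnb2 encode the B-type cyclins that activate CDK1. Ccnb1 was at 247 and 227 CPM in co-cultured CD8 T cells and 347 and 324 in CD8 T cells alone (log2 change -0.58, SE 0.0718). In ILC2s Ccnb1 was at 44.0 and 40.4 CPM in those labelled co-cultured, against 199 and 197 in those labelled alone, a 4.04-fold fall (log2 change -2.01, SE 0.127, adjusted p = 9.4e-08). Ccnb2 fell less in both, to 241 and 236 CPM in co-cultured CD8 T cells, against 277 and 261 in CD8 T cells alone. In ILC2s Ccnb2 was at 48.3 and 49.6 CPM in those labelled co-cultured and 111 and 104 in those labelled alone (log2 change -0.92, SE 0.119). Ccna2, which encodes the cyclin of S and G2 phases, changed by -0.24 in CD8 T cells and -1.46 in ILC2s on the log2 scale. The CD8 calls of Ccnb2 and Ccna2 were lost when co-cultured replicate 2 was left out (adjusted p = 0.067 and 0.13).

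Cks1b and Cks2 encode small proteins that bind cyclin-dependent kinases. Cks1b had the largest fall of the set in both cell types, to 67.4 and 73.5 CPM in co-cultured CD8 T cells, against 148 and 121 in CD8 T cells alone. In ILC2s Cks1b was at 13 and 15.2 CPM in those labelled co-cultured, against 78.7 and 86.5 in those labelled alone. Its log2 change was -1.01 (SE 0.0928, adjusted p = 1.0e-06) in CD8 T cells and -2.34 (SE 0.136, adjusted p = 4.7e-08) in ILC2s. The related gene Cks2 also fell in both. It was at 47.8 and 50.6 CPM in co-cultured CD8 T cells and 91.8 and 77.6 in CD8 T cells alone. In ILC2s Cks2 was at 17.0 and 22.2 CPM in those labelled co-cultured and 34.2 and 36.6 in those labelled alone. The log2 changes of Cks2 were -0.86 in CD8 T cells and -0.64 in ILC2s, and their difference in the joint fit, which has its own scaling, was 0.06 (SE 0.172) and did not pass the test (adjusted p = 0.79).

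The phosphatases CDC25B and CDC25C remove the inhibitory phosphates from CDK1. Cdc25b rose most of the set, to 196 and 198 CPM in co-cultured CD8 T cells, against 81.1 and 85.8 in CD8 T cells alone (log2 change 1.16, SE 0.0725, adjusted p = 4.7e-08). In ILC2s it was at 84.0 and 74.7 CPM in those labelled co-cultured, against 53.0 and 48.6 in those labelled alone (log2 change 0.86, SE 0.132, adjusted p = 0.00012). In each cell type both co-cultured libraries were above both libraries alone, although scaling to ILC2 identity genes turned the ILC2 value of Cdc25b to -0.68. Cdc25c was at 51.6 and 48.8 CPM in co-cultured CD8 T cells, against 35.5 and 35.3 in CD8 T cells alone. In ILC2s Cdc25c was at 13.8 and 10.9 CPM in those labelled co-cultured, against 21.0 and 20.8 in those labelled alone, so the cell types moved in opposite directions (interaction -1.12, adjusted p = 6.9e-05). The ILC2 call of Cdc25c was lost when co-cultured replicate 2 was left out (adjusted p = 0.076).

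FOXM1 and MYBL2 are transcription factors that drive late cell cycle genes. Foxm1 was at 51.1 and 59.1 CPM in co-cultured CD8 T cells, against 34.4 and 35.8 in CD8 T cells alone (log2 change 0.57, SE 0.0907). In ILC2s Foxm1 was at 11.3 and 11.2 CPM in those labelled co-cultured and 34.3 and 29.2 in those labelled alone (log2 change -1.28, SE 0.145), a difference between cell types of -2.01 (adjusted p = 6.1e-08). Foxm1 shares 144 exonic bases with Tex52 and 97 with Gm44596. Mybl2 fell in both, to 49.5 and 50.4 CPM in co-cultured CD8 T cells, against 80.4 and 64.3 in CD8 T cells alone. In ILC2s it was at 14.3 and 10.3 CPM in those labelled co-cultured and 59.8 and 50.6 in those labelled alone (log2 change -1.94, SE 0.182). Of the mitotic kinases, Plk1 changed by -0.32 in CD8 T cells and -1.52 in ILC2s, and Aurka, which matures the spindle poles, was at 130 and 129 CPM in co-cultured CD8 T cells, against 185 and 163 in CD8 T cells alone. In ILC2s Aurka was at 32.4 and 33.8 CPM in those labelled co-cultured and 93.9 and 93.0 in those labelled alone.

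**Figure D3:**
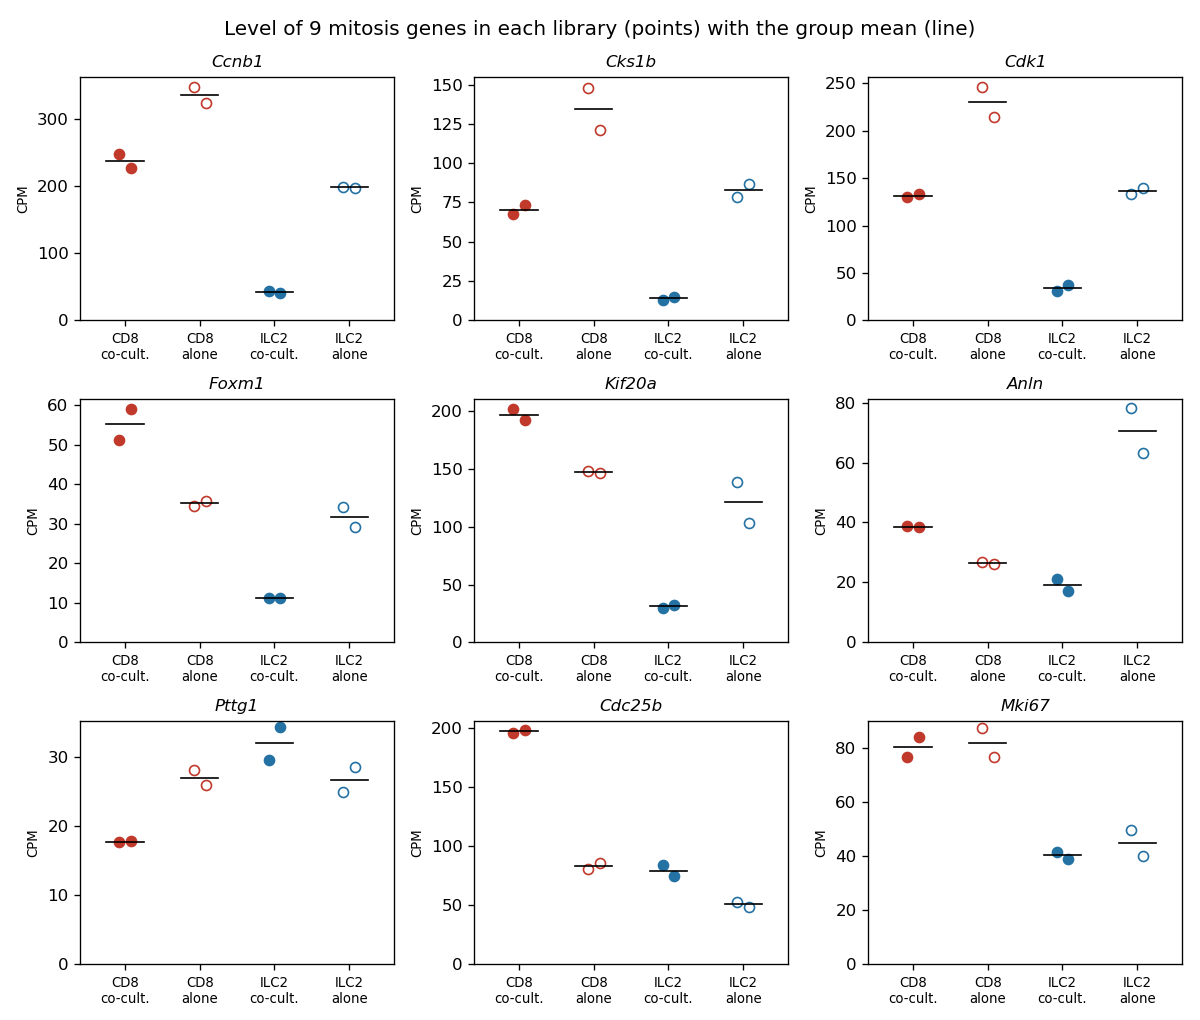
Level in every library (CPM, linear axis from 0) of 9 mitosis genes, with lines at the group means, with co-cultured libraries left of those alone within each cell type. The 2 libraries of a group lie close together for most genes, and the ILC2 points labelled co-cultured lie lowest for Cdk1, Ccnb1, Cks1b, Foxm1 and Kif20a.

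Genes of the spindle checkpoint and of anaphase were lower or not called in CD8 T cells and lower in ILC2s, apart from securin. Of 8 genes, 5 were lower and none higher in co-cultured CD8 T cells, and 3 did not pass the test, with a median of -0.54. In ILC2s 7 were lower, with a median of -0.88. Bub3, which carries checkpoint kinases to the kinetochore, was at 251 and 252 CPM in co-cultured CD8 T cells and 350 and 330 in CD8 T cells alone. In ILC2s Bub3 was at 102 and 114 CPM in those labelled co-cultured and 217 and 223 in those labelled alone (log2 change -0.82, SE 0.115). Mad2l1 encodes the MAD2 protein that binds CDC20. It was at 117 and 113 CPM in co-cultured CD8 T cells and 187 and 159 in CD8 T cells alone (log2 change -0.67, SE 0.0807), and at 56.8 and 56.9 CPM in ILC2s labelled co-cultured and 92.4 and 92.9 in those labelled alone. The interaction of Mad2l1 was 0.02 (SE 0.138) and did not pass the test (adjusted p = 0.92).

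The kinase genes Bub1, Bub1b and Ttk were not called in CD8 T cells and were lower in ILC2s. Bub1 was at 77.9 and 77.1 CPM in co-cultured CD8 T cells and 66.7 and 66.7 in CD8 T cells alone (adjusted p = 0.12). In ILC2s Bub1 was at 16.3 and 13.2 CPM in those labelled co-cultured, against 41.8 and 35.1 in those labelled alone. Bub1b, whose product BUBR1 inhibits CDC20, did not pass with edgeR and was at 174 and 164 CPM in co-cultured CD8 T cells and 143 and 141 in CD8 T cells alone (log2 change 0.17, adjusted p = 0.051), though it did with DESeq2 (adjusted p = 0.047). In ILC2s Bub1b was at 44.7 and 39.1 CPM in those labelled co-cultured and 75.5 and 61.9 in those labelled alone (log2 change -0.50, SE 0.144), which no longer passed when ILC2 alone replicate 1 was left out (adjusted p = 0.11). Ttk, the kinase that starts checkpoint signalling at kinetochores, changed by 0.02 in CD8 T cells (adjusted p = 0.87) and -0.94 in ILC2s.

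Cdc20 and Ube2c act in the destruction of cyclin B, and both fell in both cell types. Cdc20 changed by -0.56 in CD8 T cells and -1.28 in ILC2s. Ube2c, the ubiquitin-conjugating enzyme of the anaphase-promoting complex, was at 131 and 137 CPM in co-cultured CD8 T cells and 228 and 210 in CD8 T cells alone (log2 change -0.78, SE 0.0721). In ILC2s Ube2c was at 29.7 and 37.1 CPM in those labelled co-cultured and 106 and 113 in those labelled alone. It shares 592 exonic bases with Tnnc2 on the other strand. Pttg1, which encodes securin, the inhibitor of the protease that cuts cohesin, was the exception. It was at 17.6 and 17.8 CPM in co-cultured CD8 T cells, against 28.0 and 25.9 in CD8 T cells alone (log2 change -0.69, SE 0.0959). In ILC2s Pttg1 was at 29.6 and 34.3 CPM in those labelled co-cultured and 24.9 and 28.5 in those labelled alone (log2 change 0.47, SE 0.137, adjusted p = 0.0099). The ILC2 call of Pttg1 was lost when alone replicate 1 was left out (adjusted p = 0.079) and with library totals only (adjusted p = 0.12), and scaling to ILC2 identity genes turned its value to -1.06.

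**Figure D4:**
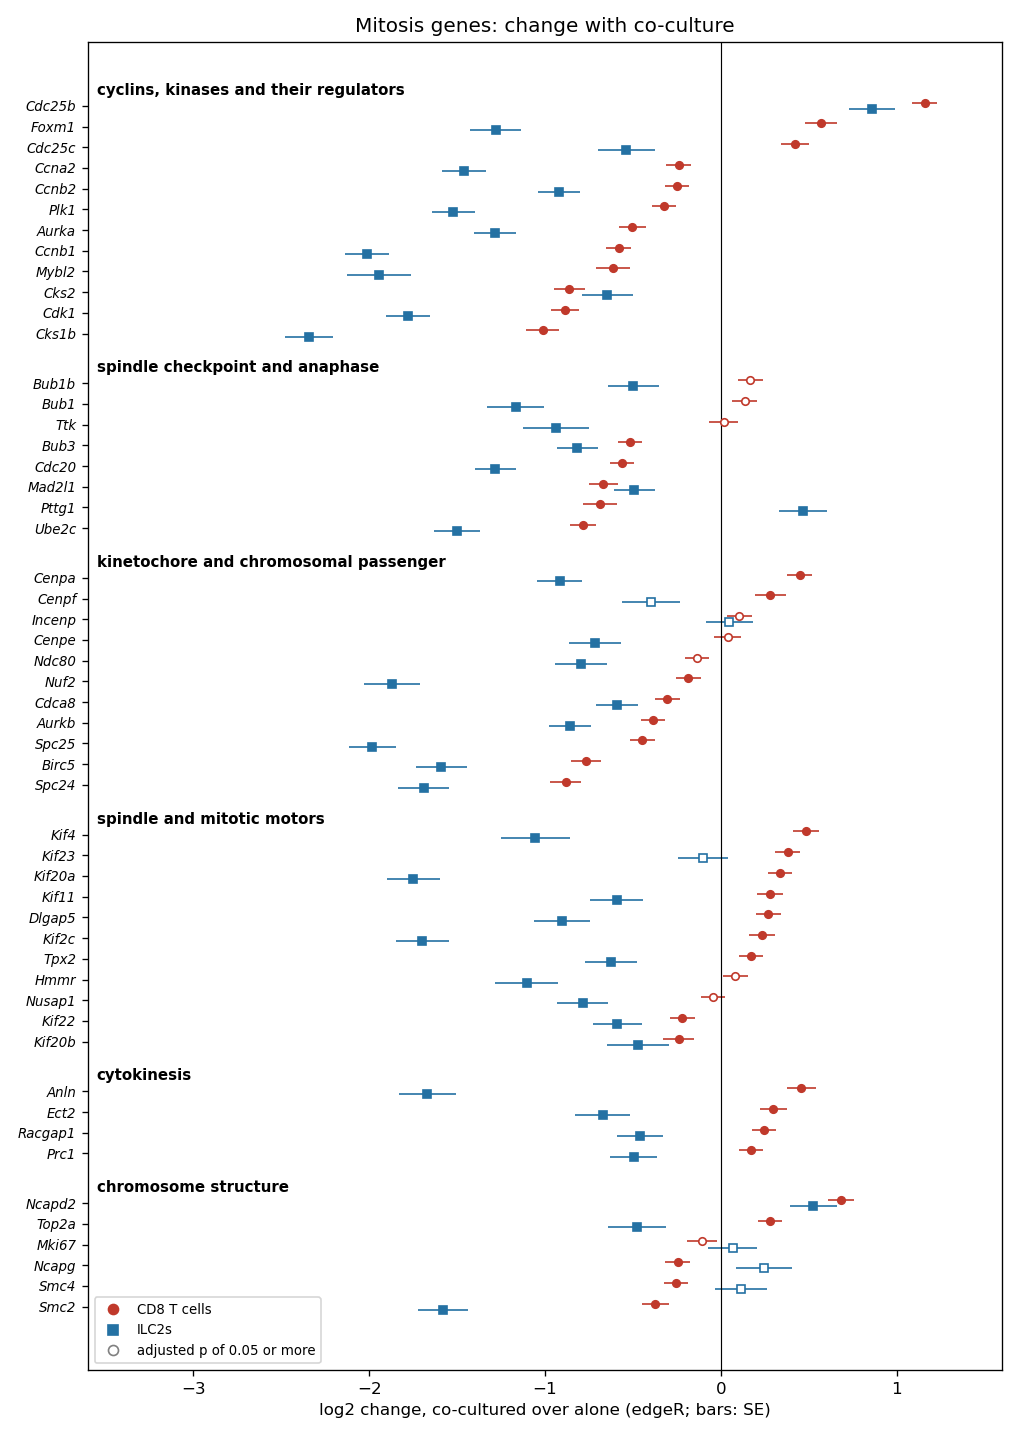
Log2 change of each gene, co-cultured over alone, by role (CD8 T cells circles, ILC2s squares), with SE bars from edgeR and open symbols for genes not called. In CD8 T cells 7 of 11 motor genes and all 4 cytokinesis genes were called above 0 and 9 of 12 cyclin and kinase genes below, and in ILC2s nearly all lie below 0.

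Kinetochore and chromosomal passenger genes were mixed in CD8 T cells. Of 11 genes, 2 were higher (Cenpa and Cenpf), 6 lower and 3 not called, with a median of -0.18. In ILC2s 9 were lower and none higher, with a median of -0.86. Cenpa encodes the histone H3 variant that marks centromeres. Its level was 423 and 405 CPM in co-cultured CD8 T cells, against 276.5 and 297 in CD8 T cells alone, and 58.0 and 72.5 in ILC2s labelled co-cultured, against 142 and 143 in those labelled alone. The log2 changes of Cenpa were 0.45 (SE 0.0717) in CD8 T cells and -0.92 (SE 0.127) in ILC2s, with an interaction of -1.52 (adjusted p = 2.3e-07). Cenpf, a large kinetochore protein gene, changed by 0.28 in CD8 T cells, a call lost without co-cultured replicate 2 (adjusted p = 0.21). In ILC2s it changed by -0.40 and just missed the threshold (adjusted p = 0.0504), and it passed when alone replicate 2 or co-cultured replicate 1 was left out. Cenpe, the kinesin that carries chromosomes to the spindle equator, was not called in CD8 T cells (0.04, adjusted p = 0.68) and changed by -0.72 in ILC2s.

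The NDC80 complex, which couples kinetochores to microtubules, has the subunits encoded by Ndc80, Nuf2, Spc24 and Spc25. In CD8 T cells Spc24 fell most, to 43.1 and 40.3 CPM in co-cultured cells, against 78.4 and 67.1 in cells alone (log2 change -0.88, SE 0.0875, adjusted p = 2.1e-06). Spc25 was at 67.04 and 65.9 CPM in co-cultured CD8 T cells and 88.2 and 83.1 in CD8 T cells alone. Nuf2 was at 81.4 and 83.7 CPM in co-cultured CD8 T cells and 89.8 and 87.7 in CD8 T cells alone, a call lost on leaving out any 1 of the 4 libraries (adjusted p 0.062 to 0.19), and Ndc80 did not pass the test (log2 change -0.14, adjusted p = 0.11). In ILC2s all 4 were lower. Nuf2 was at 15.8 and 12.7 CPM in ILC2s labelled co-cultured, against 65.6 and 55.4 in those labelled alone (log2 change -1.87). Spc24 was at 7.96 and 8.51 CPM in ILC2s labelled co-cultured, against 32.5 and 29.2 in those labelled alone (log2 change -1.69). Spc25 was at 12.8 and 14.6 CPM in ILC2s labelled co-cultured, against 66.8 and 58.7 in those labelled alone (log2 change -1.98), and Ndc80 changed by -0.80. A per-length scale is reads per kilobase of merged annotated exons per 1e+06 reads (RPKM). On it the 4 subunits had mean levels of 53.7 (Ndc80), 29.9 (Nuf2), 18.3 (Spc24) and 41.9 (Spc25) in co-cultured CD8 T cells. In ILC2s labelled co-cultured the levels were 15.6, 5.15, 3.61 and 8.64.

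The chromosomal passenger complex holds Aurora B with INCENP, survivin and borealin. Aurkb was at 233 and 224.5 CPM in co-cultured CD8 T cells and 293.5 and 272 in CD8 T cells alone. In ILC2s Aurkb was at 52.6 and 56.6 CPM in those labelled co-cultured and 120 and 109.5 in those labelled alone (log2 change -0.86, SE 0.12). Birc5, the gene of survivin, fell to 106 and 108 CPM in co-cultured CD8 T cells, against 188 and 156 in CD8 T cells alone (log2 change -0.77, SE 0.0849), and changed by -1.59 in ILC2s. Cdca8, which encodes borealin, changed by -0.30 in CD8 T cells and -0.59 in ILC2s. The scaffold gene Incenp did not pass the test in either cell type, with log2 changes of 0.11 (adjusted p = 0.21) and 0.05 (adjusted p = 0.75).

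In spindle and motor genes the calls were mainly upward in co-cultured CD8 T cells and downward in ILC2s. Of 11, 7 were higher in co-cultured CD8 T cells and 2 lower (Kif20b and Kif22), with a median of 0.24. In the single fit of all 8 libraries 4 were higher, none was lower and 7 were not called, with the calls of Kif2c, Tpx2, Dlgap5, Kif20b and Kif22 lost (adjusted p = 0.082, 0.198, 0.0698, 0.178 and 0.104). In ILC2s 10 were lower and Kif23 was not called, with a median of -0.78. Kif20a encodes a kinesin of the spindle midzone. It was at 202 and 192 CPM in co-cultured CD8 T cells, against 148 and 147 in CD8 T cells alone (log2 change 0.34, SE 0.0685, adjusted p = 0.00084). In ILC2s Kif20a was at 29.9 and 32.3 CPM in those labelled co-cultured and 139 and 104 in those labelled alone (log2 change -1.75, SE 0.15, adjusted p = 1.2e-06), and the interaction was -2.25. Its related gene Kif20b was at 67.1 and 65.4 CPM in co-cultured CD8 T cells and 81.2 and 66.9 in CD8 T cells alone, where the groups overlap. In ILC2s Kif20b was at 30.1 and 22.8 CPM in those labelled co-cultured and 48.1 and 37.4 in those labelled alone, and its call in either cell type was lost when alone replicate 1 was left out (adjusted p = 0.36 in CD8 T cells and 0.24 in ILC2s) and when co-cultured replicate 2 was (adjusted p = 0.13 and 0.19), and in CD8 T cells also without co-cultured replicate 1 (adjusted p = 0.075). Kif20a shares 1271 exonic bases with Cdc23 on the other strand.

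Kif2c, a kinesin that shortens microtubules at kinetochores, was at 139 and 125 CPM in co-cultured CD8 T cells and 107 and 105 in CD8 T cells alone. In ILC2s Kif2c was at 21.1 and 19.5 CPM in those labelled co-cultured, against 86.0 and 67.1 in those labelled alone (log2 change -1.70, SE 0.15). Kif4, a chromosome-bound kinesin, had the largest rise of the group in CD8 T cells (log2 change 0.48, SE 0.0739) and changed by -1.06 in ILC2s. Kif11, the motor that pushes spindle poles apart, changed by 0.28 in CD8 T cells and -0.59 in ILC2s. Tpx2, which activates Aurora A, changed by 0.17 in CD8 T cells (adjusted p = 0.040) and -0.62 in ILC2s. The CD8 calls of Kif11 and Kif2c were lost without co-cultured replicate 1 (adjusted p = 0.059 and 0.17). That of Tpx2 was lost on leaving out alone replicate 1, co-cultured replicate 1 or co-cultured replicate 2 (adjusted p = 0.069, 0.15 and 0.14). That of Kif22, a chromosome-arm kinesin gene, was lost without co-cultured replicate 2 (adjusted p = 0.21), and in ILC2s without alone replicate 1 (adjusted p = 0.052). Nusap1 and Hmmr, whose products bind spindle microtubules, were not called in CD8 T cells and were lower in ILC2s, at -0.78 and -1.10. Dlgap5, which stabilises spindle fibres near chromosomes, changed by 0.27 in CD8 T cells and -0.90 in ILC2s. Kif23, a kinesin of the central spindle, was higher in CD8 T cells (0.38) and not called in ILC2s (-0.10, adjusted p = 0.54).

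All 4 cytokinesis genes were higher in co-cultured CD8 T cells and lower in ILC2s labelled co-cultured, with medians of 0.27 and -0.58. Anln encodes anillin, which scaffolds the contractile ring. It was at 38.8 and 38.5 CPM in co-cultured CD8 T cells, against 26.9 and 26.3 in CD8 T cells alone (log2 change 0.46, SE 0.0836). In ILC2s Anln was at 21.1 and 17.0 CPM in those labelled co-cultured, against 78.1 and 63.1 in those labelled alone (log2 change -1.67, SE 0.163), and its interaction of -2.29 was the largest of the set. Ect2 and Racgap1, which switch on RhoA at the division plane, changed by 0.30 and 0.25 in CD8 T cells and by -0.67 and -0.46 in ILC2s. Prc1, which bundles midzone microtubules, changed by 0.17 in CD8 T cells (adjusted p = 0.045) and -0.50 in ILC2s. The CD8 call of Prc1 was lost on leaving out any 1 of the 4 CD8 libraries (adjusted p 0.057 to 0.24), and that of Racgap1 without co-cultured replicate 1 (adjusted p = 0.076). In ILC2s the call of Racgap1 was lost without co-cultured replicate 2 (adjusted p = 0.051).

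Genes of chromosome structure did not move as a block. Of 6 genes, 2 were higher and 3 lower in co-cultured CD8 T cells, and 1 was higher, 2 lower and 3 not called in ILC2s. The proliferation marker Mki67, whose protein coats mitotic chromosomes, was at 76.6 and 84.0 CPM in co-cultured CD8 T cells and 87.3 and 76.4 in CD8 T cells alone. In ILC2s Mki67 was at 41.5 and 39.0 CPM in those labelled co-cultured and 49.4 and 39.8 in those labelled alone. The groups overlapped in both cell types, and neither log2 change passed the test (-0.11, adjusted p = 0.29, in CD8 T cells and 0.07, adjusted p = 0.69, in ILC2s). Top2a, which untangles sister DNA, was at 501 and 527 CPM in co-cultured CD8 T cells and 407 and 392.2 in CD8 T cells alone. In ILC2s Top2a was at 169 and 131 CPM in those labelled co-cultured and 274 and 211 in those labelled alone (log2 change -0.47, SE 0.165). The ILC2 call of Top2a was lost when alone replicate 1 (adjusted p = 0.18) or co-cultured replicate 2 (adjusted p = 0.15) was left out.

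The condensin subunits, which compact mitotic chromosomes, moved apart. Ncapd2 was at 248 and 271 CPM in co-cultured CD8 T cells, against 151 and 155 in CD8 T cells alone (log2 change 0.68, SE 0.0738). In ILC2s Ncapd2 was at 106 and 96.9 CPM in those labelled co-cultured and 89.0 and 75 in those labelled alone (log2 change 0.53, SE 0.133), a sign that scaling to ILC2 identity genes turned to -1.01. The core subunit gene Smc2 fell in both, with log2 changes of -0.37 in CD8 T cells and -1.58 in ILC2s. Its partner Smc4 changed by -0.26 in CD8 T cells and did not pass the test in ILC2s (0.12, adjusted p = 0.51). Ncapg was lower in CD8 T cells (-0.25) and not called in ILC2s (0.25, adjusted p = 0.19), though it passed as higher there when alone replicate 1 or co-cultured replicate 2 was left out (adjusted p = 0.023 and 0.038). The CD8 call of Smc4 was lost without co-cultured replicate 1 (adjusted p = 0.077) and that of Ncapg without co-cultured replicate 2 (adjusted p = 0.079).

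The changes in CD8 T cells moved with transcript length. The median log2 change was -0.69 over the 7 members under 1500 bases, -0.25 over the 19 of 1500 to 3000 bases and 0.17 over the 26 longer than 3000 bases. Over all genes tested the medians of these classes ran in the same order, at -0.43, 0.01 and 0.28. Of the 26 long members 14 were higher and 6 lower, and of the 7 short ones 1 was higher and 6 lower. Among all genes tested, 47.8% of those over 3000 bases were higher and 18.7% lower, and 11.7% of those under 1500 bases were higher and 48.1% lower. Spearman's rho between length and log2 change was 0.48 over the 52 members and 0.34 over the 14596 genes with a length in CD8 T cells, and 0.36 and 0.10 in ILC2s, as descriptions across genes of the same libraries. In ILC2s the medians of the 3 length classes were -0.92, -1.28 and -0.61 for members and -0.22, -0.16 and 0.12 for all genes. Length also differed by role. Cytokinesis genes ran from 2992 (Racgap1) to 4605 bases (Anln) and motor genes from 2115 (Kif22) to 5493 (Kif20b). Cyclins, kinases and their regulators ran from 692 (Cks2) to 3651 bases (Mybl2). The part of length in the results, the split by role in CD8 T cells included, was not tested.

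**Figure D5:**
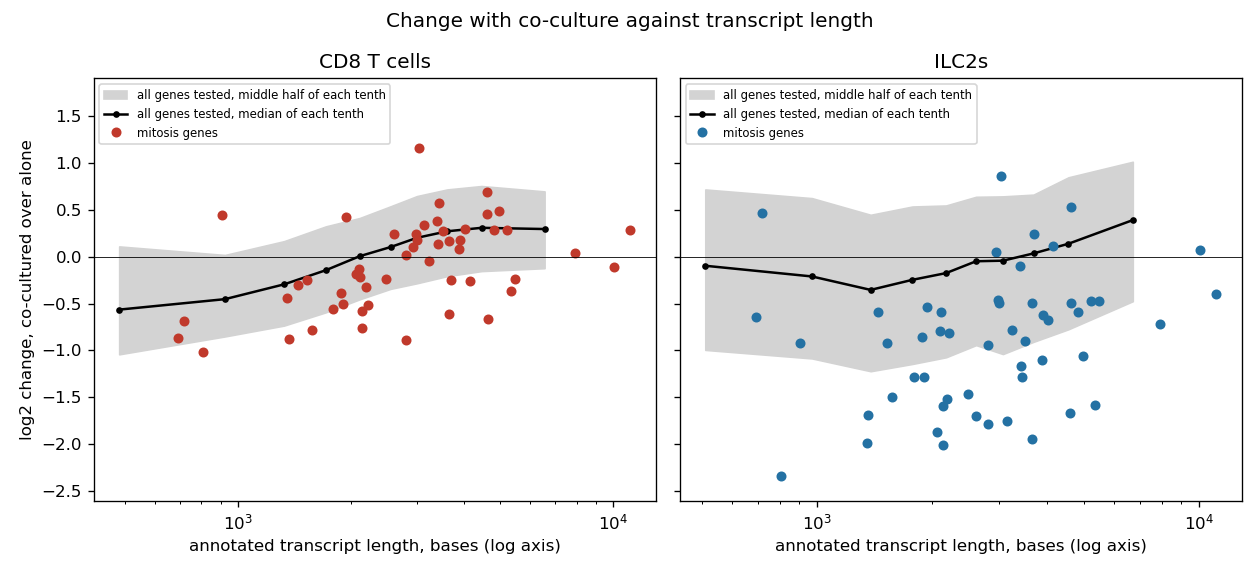
Log2 change, co-cultured over alone, against transcript length (bases, log axis) for the 52 genes, with the median (line) and middle range (grey) of all genes in bins of length, for CD8 T cells and ILC2s. In CD8 T cells the line and the points rise with length, and in ILC2s the points lie mostly below the line.

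Other genes of the pathway were read from lists. Of 72 further mitosis genes, co-cultured CD8 T cells had 21 higher and 30 lower, with a median of -0.03, and 5 were higher and 57 lower in ILC2s, with a median of -0.94. Kifc1, a kinesin that focuses spindle poles, was at 25.7 and 25.4 CPM in co-cultured CD8 T cells, against 8.01 and 7.71 in CD8 T cells alone (log2 change 1.62). Trip13, which disassembles checkpoint complexes, was at 7.74 and 6.47 CPM in ILC2s labelled co-cultured and 53.7 and 52.5 in those labelled alone (log2 change -2.68). Of 17 genes around the anaphase-promoting complex, CD8 T cells had 6 higher (35.3%) and 9 lower (52.9%) and ILC2s 2 higher (11.8%) and 8 lower (47.1%). Of 11 cohesin genes, CD8 T cells had 5 higher (45.5%) and 1 lower (9.09%) and ILC2s 5 higher (45.5%) and 2 lower (18.2%). The higher cohesin genes included the loader gene Nipbl (log2 change 1.42 in ILC2s).

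DNA replication genes were mostly lower in co-culture in both cell types. Of 49, 41 were lower and 1 higher in each cell type, with medians of -0.63 in CD8 T cells and -1.46 in ILC2s. The shares over all genes tested were 30.7% lower and 30.2% higher in CD8 T cells, and 34.4% and 31.8% in ILC2s. Tyms, the thymidylate synthase gene, was at 22.7 and 22.9 CPM in co-cultured CD8 T cells, against 94.9 and 68.2 in CD8 T cells alone, and at 7.80 and 8.74 CPM in ILC2s labelled co-cultured, against 89.3 and 85.7 in those labelled alone. The summed CPM of the 52 mitosis genes over that of the replication genes was 1.32 and 1.32 in co-cultured CD8 T cells and 0.970 and 1.00 in CD8 T cells alone. In ILC2s that ratio was 1.21 and 1.15 in those labelled co-cultured and 0.998 and 0.946 in those labelled alone. The groups did not overlap in either cell type, and this ratio was not tested.

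The regulators upstream were mixed. Among 8 G1 cyclins and kinases, CD8 T cells had 1 higher and 5 lower and ILC2s 3 higher and 5 lower. Cdk6, a G1 kinase gene, fell to 36.3 and 41.9 CPM in co-cultured CD8 T cells, against 114 and 88.9 in CD8 T cells alone, and rose to 138 and 129 CPM in ILC2s labelled co-cultured, against 55.2 and 61.1 in those labelled alone. Ccnd1, a D-type cyclin, was at 0.309 and 0.312 CPM in ILC2s labelled co-cultured, against 39.2 and 42.2 in those labelled alone, a fall that went with the stroma markers above, whose part in it was not tested. Of 18 DREAM, Rb and E2F factors, CD8 T cells had 5 higher and 5 lower, and ILC2s 4 higher and 5 lower. These were 27.8% each way in CD8 T cells, and 22.2% higher and 27.8% lower in ILC2s, each below the share over all genes. The repressor gene Rbl2 was higher in both (log2 change 1.51 in CD8 T cells and 0.91 in ILC2s). Of the cell cycle inhibitors tested, CD8 T cells had 5 of 12 higher and 3 lower and ILC2s 7 of 13 higher and 3 lower. Cdkn1a, the gene of p21, was at 151 and 158 CPM in co-cultured CD8 T cells, against 332 and 302 in CD8 T cells alone, and at 313 and 377 CPM in ILC2s labelled co-cultured, against 226 and 255 in those labelled alone. The antiproliferative gene Btg1 rose in both, by 0.94 and 1.73 on the log2 scale.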

How the data were processed

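Gene-level read counts, not normalized, were deposited by the authors as 1 table per cell type (17642 symbols in CD8 T cells, 18389 in ILC2s), with 4 libraries in each. The lowest count is 1, so a gene with no reads in any 1 library of a table is not in it. Per the submitters' processing notes, the build was mm10 and the tools included HISAT2 2.1.0, StringTie 2.1.3b, SAMtools 1.9 and Trimmomatic 0.38. No source used here gives the annotation, strand setting or filters. RNA was prepared with Trizol and amplified with the SMART-Seq v4 kit, per the labels' protocols.

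The members and lists were chosen with earlier results of these data known. Differences were tested on counts in R 4.3.3 with edgeR 4.0.16 (TMM scaling after filterByExpr, then the quasi-likelihood F test, called at a Benjamini-Hochberg adjusted p under 0.05) for each cell type, leaving 15948 and 16739 genes, and as an interaction over 15532 genes. All 52 members passed the filter. SE is the log2 change divided by the square root of F. The design left 2, 2 and 4 residual degrees of freedom, to which the test added 10.4, 9.23 and 11.5 from other genes. CPM is the count over the library total, so its ratios lack the TMM factors.

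Alternatives were DESeq2 1.42.0, limma-voom (limma 3.58.1), other scalings and filters, a replicate block, 1 fit of all 8 libraries and leaving out each library. The scripts were tested on simulated data. Replicates of a group differed by more than counting noise (chi-square per gene 12.5 to 25.9), so each counted as 1. RPKM uses the merged exon length of each gene in GENCODE M21, and the comparison with transcript length uses the median over its transcripts there. Promoters come from RefSeq (GRCm38.p6). Of the members, 11 share exonic bases with another gene, and Ccnb1, Ccnb2, Cks1b, Kif22 and Kif4 have named related copies. Reads of such pairs cannot be told apart, so those values are uncertain. Values in every library are given for the 10 largest changes of each cell type, for 6 further markers and for paralog pairs. The genes named from the lists are some of the 3 with the largest called change per list and cell type.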

Additional observations from a re-analysis of the deposited data

Results flagged for a closer look

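For 44 of the 52 mitosis genes the response to co-culture differed between ILC2s and CD8 T cells, in edgeR's interaction test over all 8 libraries. The same test was passed by 53.6% of all 15532 genes tested, 32.6% lower and 21% higher. The values are the log2 change in ILC2s minus that in CD8 T cells in a joint fit with its own scaling, so they can differ from the gap between the values of the separate fits. Among cyclins, kinases and their regulators, the difference was -1.05 for Cdk1, -1.38 for Ccna2, -1.59 for Ccnb1, -0.83 for Ccnb2, -0.46 for Cdc25b, -1.12 for Cdc25c, -1.49 for Cks1b, -1.36 for Plk1, -0.94 for Aurka, -2.01 for Foxm1 and -1.49 for Mybl2. Among checkpoint and anaphase genes, the difference was -1.46 for Bub1, -0.82 for Bub1b, -0.46 for Bub3, -1.11 for Ttk, -0.88 for Cdc20, -0.87 for Ube2c and 1.00 for Pttg1. Among kinetochore and passenger genes, the difference was -1.52 for Cenpa, -0.91 for Cenpe, -0.84 for Cenpf, -1.84 for Nuf2, -0.82 for Ndc80, -0.97 for Spc24, -1.69 for Spc25, -0.63 for Aurkb, -0.98 for Birc5 and -0.44 for Cdca8. Among spindle and motor genes, the difference was -1.03 for Kif11, -2.25 for Kif20a, -0.53 for Kif22, -0.64 for Kif23, -2.09 for Kif2c, -1.70 for Kif4, -0.95 for Tpx2, -0.90 for Nusap1, -1.35 for Hmmr and -1.33 for Dlgap5. Among cytokinesis genes, the difference was -0.83 for Prc1, -2.29 for Anln, -1.13 for Ect2 and -0.86 for Racgap1. Among chromosome structure genes, the difference was -0.92 for Top2a and -1.37 for Smc2. Of these 44 values, that of Pttg1 was positive. The call of Cdc25b was lost without CD8 alone replicate 1 (adjusted p = 0.061), leaving out CD8 co-cultured replicate 1 ended that of Cdca8 (adjusted p = 0.053), and Kif22 lost its call without CD8 co-cultured replicate 1 or ILC2 alone replicate 1 (adjusted p = 0.051 and 0.053). The other-cell transcripts of the ILC2 libraries labelled alone enter each of these values, and their part was not tested.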

How the results depend on the processing

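The count of members called kept within 1.5 times under nearly all settings. Without 1 library at a time, CD8 T cells had 13 to 17 members higher and 19 to 24 lower, ILC2s 3 to 4 higher and 39 to 44 lower, and the interaction 1 to 3 higher and 41 to 45 lower. Other settings gave 12 to 21 and 20 to 25 in CD8 T cells (12 and 20 in 1 fit of all 8 libraries), and 43 to 52 lower in ILC2s. The interaction had 2 members higher with DESeq2 and 2 with its size factors. Scaling to ILC2 identity genes gave 484 genes higher and 13340 lower in ILC2s, 0 of them members higher, and turned Cdc25b to -0.68, Pttg1 to -1.06, Incenp to -1.49, Mki67 to -1.47, Smc4 to -1.43, Ncapd2 to -1.01 and Ncapg to -1.30. With library totals alone the median of all genes was 0.08 in CD8 T cells, -0.22 in ILC2s and -0.29 in the interaction, against -0.01, -0.01 and -0.12 with TMM (2499 genes higher and 6112 lower in the interaction). That setting also turned Nusap1 to 0.035 in CD8 T cells, Incenp to -0.17, Mki67 to -0.15 and Smc4 to -0.10 in ILC2s, and Cks2 to -0.10, Mad2l1 to -0.15 and Mki67 to -0.16 in the interaction. The cause was not tested. A single fit of all 8 libraries ended 11 CD8 calls (Cenpf, Nuf2, Kif20b, Kif22, Kif2c, Tpx2, Dlgap5, Prc1, Top2a, Smc4 and Ncapg) and turned Incenp to -0.10, Mki67 to -0.087 and Smc4 to -0.038 in ILC2s, and no low-count filter turned Mad2l1 to -0.00088 and Mki67 to -0.0028 in the interaction.

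Without 1 library, sign changes were limited to values near 0: Ttk (-0.0305 to 0.0651) and Cenpe (-0.0287 to 0.11) in CD8 T cells, Incenp (-0.0872 to 0.23), Kif23 (-0.25 to 0.0902), Mki67 (-0.0638 to 0.24) and Smc4 (-0.0543 to 0.34) in ILC2s, and Cks2 (-0.11 to 0.21), Mad2l1 (-0.0931 to 0.11) and Mki67 (-0.12 to 0.16) in the interaction. Calls of 13 members in CD8 T cells and 7 in ILC2s were lost on leaving out at least 1 library, as given beside each. Whether replicate numbers pair the libraries is not known here. The correlation of same-numbered deviations was -0.03 in CD8 T cells and 0.04 in ILC2s, which cannot settle it with 2 libraries a group. With a replicate block, CD8 T cells had 16 members higher and 25 lower, ILC2s 3 and 44 and the interaction 1 and 44. The block ended the CD8 calls of Tpx2 and Prc1 (adjusted p = 0.055 and 0.054) and brought Cenpf in ILC2s and Kif20b in the interaction past the threshold (adjusted p = 0.018 and 0.043). With 2 libraries a group, each leave-out fit has 1 library in a group, which is assumed to vary like the other group.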

Other observations

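Over the 8 libraries, the genes whose log2 CPM followed the mean of the 52 members most closely were Lrmp (Pearson's r 0.9988), Dtl (0.9984), Trbv19 (0.9982), Clpb (0.9978) and Rbl1 (0.9978). These are descriptions over 8 libraries that fall into 4 groups of 2 cell types.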
